A study of Mus musculus with 6 samples.

Results

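The 7 Sm proteins form the ring at the core of the spliceosomal snRNPs (small nuclear ribonucleoproteins), and their genes are described here in cultures labelled as mouse B cells, with and without an induced deletion of Prmt5. The members were taken by name from a deposited table of 21307 rows: Snrpb, Snrpd1, Snrpd2, Snrpd3, Snrpe, Snrpf and Snrpg, all 7 of them listed. RNA sequencing compared 3 libraries of ethanol-treated control cells with 3 libraries of cells treated with 4-hydroxytamoxifen (4-OHT). All 6 libraries came from cultured bone marrow B cells of pretumoral mice aged 6 to 8 weeks on a C57BL/6 x 129S1/SvlmJ background. Controls and treated cells alike carried the Eµ-myc transgene, in which an immunoglobulin enhancer drives MYC in B-lineage cells, together with Prmt5F/F (both alleles of Prmt5 flanked for deletion) and CreER, a Cre recombinase that 4-OHT switches on. Treated cells received 50 nM 4-OHT for 24 h and controls received ethanol, after which both were washed and kept in culture for 5 days. Interleukin 7, a growth factor of early B cells, was present at 5 ng/µl. The promoter of CreER and the number of mice were not given in the sources used here. The titles of the libraries call the groups WT and PT, whereas the treatment labels and the table name ethanol and 4-OHT. Both namings divide the libraries alike, and the treatment names are used here.

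In the cytoplasm the Sm proteins close into a ring around each newly exported snRNA of the U1, U2, U4 and U5 type. They reach it as preformed groups, SmD1 with SmD2, SmE with SmF and SmG, and SmB with SmD3. SmB, SmD1 and SmD3 (genes Snrpb, Snrpd1 and Snrpd3) end in tails rich in arginine and glycine. PRMT5, an arginine methyltransferase, places symmetric dimethyl marks on these tails, working with the adaptor proteins MEP50 and pICln. The SMN complex binds the methylated tails and loads the ring onto the snRNA. SmD2, SmE, SmF and SmG lack such tails. The series asks how MYC and PRMT5 act on this machinery. The values here are mRNA levels and show neither methylation of Sm proteins nor ring assembly.

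The table gives 1 FPKM value per gene and condition (mapped fragments scaled to transcript length and library size), so no difference below has a replicate error or a test. Read depth is unknown. Ratios divide FPKM + 1 after 4-OHT by FPKM + 1 after ethanol and are given as log2, a scale that understates changes of low genes. Rows were compared when both values were above 0 and their mean was at least 1 FPKM, which left 10856 rows and all 7 ring members. Prmt5, the deleted gene, had 41.6 FPKM in control cells and 5.71 FPKM after 4-OHT, 6.35-fold lower on the FPKM + 1 scale. Some Prmt5 signal thus remained, and whether it came from intact transcripts cannot be told from 1 value per gene. Where a pair of FPKM values is given without further words, ethanol comes first and 4-OHT second.

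All 7 ring members were lower in 4-OHT, by 1.27-fold to 1.58-fold. Of all compared rows, 55.1% were lower. All 7 members were at least 20% lower (on the FPKM + 1 scale), against 29.9% of compared rows. Only Snrpd1 and Snrpg were at least 1.5-fold lower, against 12.8% of rows, and no member was 2-fold lower, against 2.58% of rows. The median log2 ratio was -0.47 over the 7 members and -0.07 over all compared rows. Abundant genes were lower more often. The 559 rows whose mean reached 100 FPKM hold all 7 members. Of these rows, 59.9% were lower and 40.4% at least 20% lower, with a median of -0.19. At least 1.5-fold lower were 102 of the 559, and at least 2-fold lower 29. When the conditions were scaled to each other by the median of ratios, 6 members were at least 20% lower, against 24.5% of compared rows under that scaling, and none was 1.5-fold lower, against 9.90%.

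Marker genes of several cell types also differed between the conditions. The 9 B-cell markers used here had lower values in 4-OHT (55.1% of all compared rows), 8 of them by at least 20% (29.9%). Their summed level went from 1114 to 477 FPKM. Rag1, which encodes part of the V(D)J recombinase of early lymphocytes, was near equal at 29.3 and 28.7 FPKM. Cd79a, which encodes a chain of the B-cell receptor complex, was at 260 and 85.6 FPKM, so transcripts of the labelled cell type were present in both conditions. Ms4a1, the CD20 gene of later B cells, was low, at 2.32 and 0.603 FPKM. It passed the minimum mean of 1 FPKM only through ethanol, so the minimum fixed its direction. Of all compared rows, 44.9% were higher in 4-OHT. Among compared markers of other cells, 7 of 7 were higher for neutrophils, of 10 searched, 8 of 8 for macrophages, 8 of 8 for stromal cells and 5 of 5 for megakaryocytes. Summed over all markers above 0 in both conditions, including those below the minimum for comparison, neutrophil genes had 351 and 3321 FPKM, macrophage genes 2794 and 5695 FPKM, stromal genes 33.4 and 541 FPKM and megakaryocyte genes 222 and 830 FPKM. The 5 T-cell markers were low, at a sum of 2.83 and 8.24 FPKM. The macrophage sum exceeded the B-cell sum in both conditions, and the neutrophil sum exceeded it in 4-OHT. Apoe alone gave 2174 and 4314 FPKM of the macrophage sum. Among the markers summed, which leave out Lyz2, the order in ethanol rests on Apoe. The cultures thus held transcripts of other cells beside those of the labelled type. The macrophage gene Lyz2 was listed at 3835 FPKM in ethanol and 0 in 4-OHT, with a deposited log2 fold change of 0. It was left out of the sum, although its ethanol value alone exceeded the B-cell sum. The part of these markers in the lower ring values was not tested. In such bulk samples, fewer cells of a type and less RNA per cell cannot be told apart. The ring genes, used by every cell that splices, were 1.42-fold lower in sum (1811 and 1274 FPKM), and the B-cell markers 2.33-fold lower.

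The SmD1-SmD2 pair joins an arginine-methylated protein with an unmethylated partner. Snrpd1 (mm9 chromosome 18, 10617794 to 10628228) had 132 FPKM in control cells and 85.4 FPKM after 4-OHT, 1.54-fold lower (log2 ratio -0.62). Its ratio lay at percentile 11.1 of compared rows, counted from the lowest. Snrpd2 (chromosome 7, 19735187 to 19738075) was at 296 and 213 FPKM, 1.39-fold lower (log2 ratio -0.47, percentile 19.0). Snrpd1 had the lowest level of the ring in both conditions and Snrpd2 the second highest, so the level of Snrpd2 was 2.24 times that of Snrpd1 in ethanol and 2.49 times in 4-OHT.

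SmE, SmF and SmG form the trimer that has no methylated member. Snrpe (chromosome 1, 135500448 to 135506857) had 256 FPKM in control cells and 193 FPKM after 4-OHT, 1.32-fold lower (log2 ratio -0.40, percentile 23.7). Snrpf (chromosome 10, 93003377 to 93052403) was at 144 and 105 FPKM, 1.37-fold lower (log2 ratio -0.46, percentile 19.9). Snrpg (chromosome 6, 86321534 to 86328896) was at 511 and 324 FPKM, 1.58-fold lower (log2 ratio -0.66, percentile 9.71). Snrpg thus combined the highest level of the ring with its lowest ratio, and its difference of -187 FPKM made up 34.8% of the summed difference of the 7 members. The listed locus of Snrpf also spans Ccdc38, which GENCODE M21 places on the other strand and which had 3.29 FPKM in control cells and 1.16 FPKM after 4-OHT.

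SmB and SmD3 are the pair in which both proteins carry methylated tails. Snrpb (chromosome 2, 129997372 to 130005100) had 243 FPKM in control cells and 192 FPKM after 4-OHT, 1.27-fold lower (log2 ratio -0.34, percentile 28.3). Snrpd3 (chromosome 10, 74980787 to 74998185) was at 229 and 162 FPKM, 1.40-fold lower (log2 ratio -0.49, percentile 17.9). The levels of the partners lay close together, 1.06-fold apart in ethanol and 1.18-fold in 4-OHT. The single value of the Snrpb row does not separate splice forms of the gene. Snrpn, the paralogue of Snrpb that encodes the brain protein SmN, was listed at 0.00407 and 0.152 FPKM, below the minimum for comparison.

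**Figure D1:**
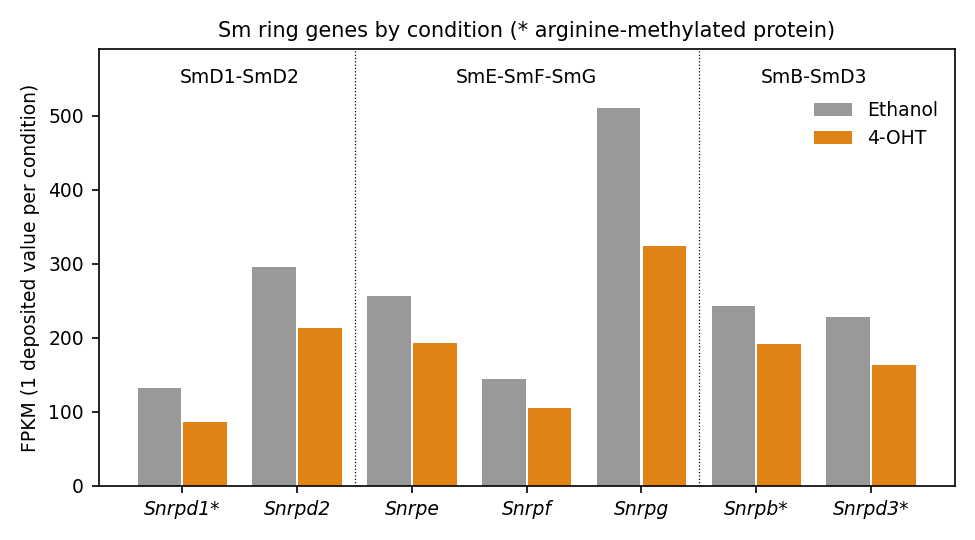
Bars give the deposited FPKM of each Sm ring gene in ethanol (grey) and 4-OHT (orange), 1 value per condition and so without error bars, grouped by the protein groups that join the ring; asterisks mark genes whose proteins carry methylated arginines. Every orange bar is lower than its grey neighbour, and Snrpg shows the tallest bars, at 511 and 324 FPKM.

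The members whose proteins are arginine-methylated did not separate from the others. Snrpb, Snrpd1 and Snrpd3 had log2 ratios from -0.62 to -0.34, with a median of -0.49. Snrpd2, Snrpe, Snrpf and Snrpg had log2 ratios from -0.66 to -0.40, with a median of -0.47. The ranges overlapped. The lowest ratio was that of Snrpg, without methylated arginines, and the next that of Snrpd1, with them. At the other end stood Snrpb, with methylated arginines, and next to it Snrpe, without. In each kind 1 member, Snrpd1 and Snrpg, was at least 1.5-fold lower. No interval can be set on the difference between the medians with 1 value per condition, and these values do not show that the kinds respond alike.

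The order of levels, from Snrpg through Snrpd2, Snrpe, Snrpb, Snrpd3 and Snrpf to Snrpd1, was the same in both conditions at all 7 places. FPKM is scaled to length, so levels can be set side by side, although the proteins enter the ring in equal numbers. The highest level was 3.87 times the lowest in ethanol and 3.79 times in 4-OHT. Snrpe (193 FPKM) and Snrpb (192 FPKM) were nearly equal in 4-OHT, and whether such neighbours differ beyond error cannot be judged without replicates. As shares of the summed FPKM of the ring, Snrpg went from 28.2% to 25.4%, Snrpb from 13.4% to 15.0% and Snrpe from 14.1% to 15.2%. The other members were as near as Snrpd1, which went from 7.29% to 6.70%, or nearer to their ethanol shares.

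**Figure D2:**
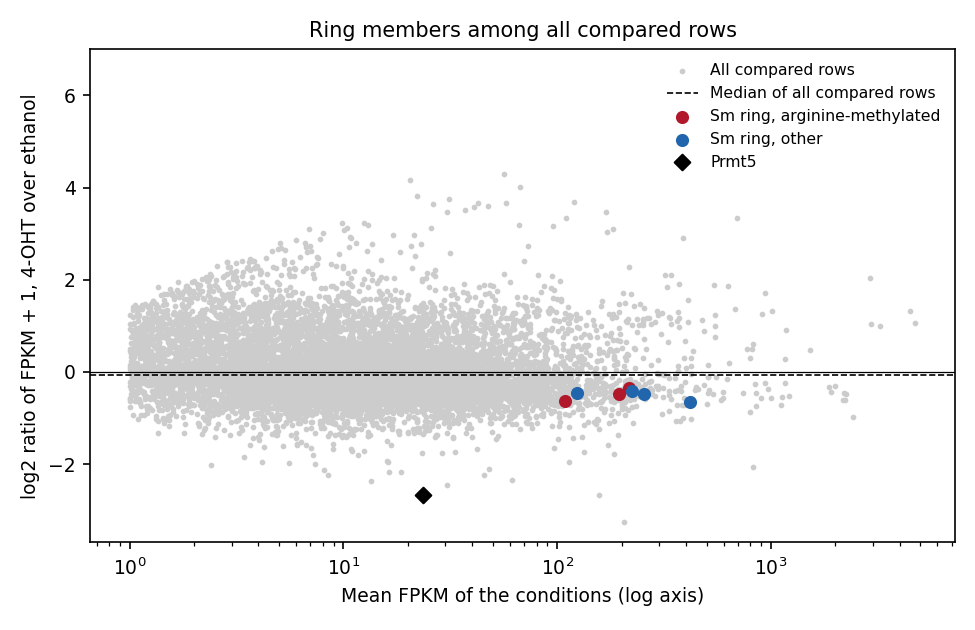
Each point is 1 compared row, placed by its mean FPKM on a log axis and by its log2 ratio of 4-OHT over ethanol; red and blue points are the ring members with and without arginine methylation, and the dashed line is the median of all rows. The ring members lie between 109 and 418 mean FPKM and between -0.66 and -0.34, below the dashed line at -0.07, with the colours interleaved and Prmt5 far below at -2.67.

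Some of these values rest on sequences that are not unique. Retrocopies share long stretches with several ring mRNAs, and the authors' handling of reads that match more than 1 place was not given in the sources used here. Searching the GENCODE M21 transcripts for other genes that match a ring mRNA at 95% identity or more over 150 bases or more found, on the same strand, 3 processed pseudogenes for Snrpg, 2 for Snrpd2 and 1 each for Snrpd1, Snrpe and Snrpf. Snrpb and Snrpd3 had none. None of these 8 copies has a row under its GENCODE M21 name in the table, and older names were not searched. The levels of the 5 genes with copies are uncertain to that extent. On the opposite strand, Ccdc38 shared 504 bases and the noncoding RNA 4933408J17Rik 168 bases with Snrpf, and the noncoding RNA Gm49262 shared 315 bases with Snrpg. Whether the counting used strand was not given either, and without strand such reads cannot be told apart.

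Because the ring genes were lower together, their promoters were read from the RefSeq promoter table (GRCm38.p6) for motifs near the start of transcription. The table matched 5 of the 7 members. Snrpb and Snrpd1 were not matched. Windows of 250 bases before the RefSeq start were searched on both strands. The start depends on the annotation: GENCODE M21 holds transcripts of all 5 genes that begin further upstream, by 11 bases for Snrpe, 48 for Snrpf, 116 for Snrpd2, 236 for Snrpg and 491 for Snrpd3. Annotated exons of protein-coding genes therefore cover all 250 bases of the Snrpd3 window, 236 of Snrpg and 116 of Snrpd2. The motifs counted in these windows all lie within those exons. Shown are the stretches outside such exons for Snrpe and Snrpf, the pair of trimer partners with most of their window left, 1 with an ETS core and the other with 3 CCAAT boxes. Capitals mark the motifs, and each sequence reads 5′ to 3′ towards the gene.
Snrpe, chr1:133610292-133610530, minus strand: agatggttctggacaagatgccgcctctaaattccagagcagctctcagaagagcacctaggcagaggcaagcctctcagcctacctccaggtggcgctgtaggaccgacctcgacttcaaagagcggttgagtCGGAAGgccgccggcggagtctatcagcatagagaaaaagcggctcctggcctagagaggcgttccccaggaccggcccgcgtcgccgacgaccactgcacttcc
Snrpf, chr10:93589707-93589908, minus strand: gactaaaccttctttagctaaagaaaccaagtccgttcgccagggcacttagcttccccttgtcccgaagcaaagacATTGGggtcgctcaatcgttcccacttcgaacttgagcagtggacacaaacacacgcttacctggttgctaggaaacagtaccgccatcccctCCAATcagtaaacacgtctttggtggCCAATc

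The E-box CACGTG, the site that MYC with its partner MAX binds, was in none of the 5 windows. It is in 6.02% of the 32851 promoter windows of the same length and in 8.56% of those of compared genes. The TATA box TATAAA was also in none (12.4% of all windows and 6.27% of those of compared genes). The ETS core CGGAAG, bound by ETS family factors, was in Snrpd2, Snrpe and Snrpg, against 13.6% of all windows and 25.3% of those of compared genes. The CCAAT box CCAAT, bound by NF-Y, was in Snrpd3, Snrpf and Snrpg (33.9% and 35.2%). The GC box GGGCGG, bound by Sp1, was in Snrpd2 and Snrpd3 (32.7% and 58.0%). The cyclic AMP response element TGACGTCA was in Snrpg alone, 49 bases before the start (1.55% and 2.60%). In Snrpd3 the GC box and a CCAAT box overlap. The windows were 52.0% to 60.8% G and C (median of all windows, 52.4%; of those of compared genes, 59.6%) and held 12 to 21 CG dinucleotides (medians 6 and 16). No motif was common to the 5 windows, and a match describes letters and not binding.

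The LSm proteins are relatives of the Sm proteins that form rings of their own, LSm1 to LSm7 on mRNAs in decay and LSm2 to LSm8 on U6 snRNA. Of 10 LSm genes compared, 9 were lower in 4-OHT (55.1% of all compared rows) and 7 at least 20% lower (29.9%). Their median log2 ratio was -0.47, as was that of the Sm ring. Lsm7, the counterpart of Snrpg, was at 112 and 60.2 FPKM and had the lowest ratio of its family (log2 ratio -0.89), as Snrpg had of the Sm ring. Lsm4, the counterpart of Snrpd3, whose protein also ends in an arginine and glycine tail, was at 122 and 78.6 FPKM (log2 ratio -0.63). Lsm10, which with Lsm11 replaces SmD1 and SmD2 in the U7 snRNP of histone mRNA processing, was at 14.9 and 15.6 FPKM (log2 ratio 0.06). Lsm11 was at 3.54 and 2.28 FPKM (log2 ratio -0.47). Snrpd1 and Snrpd2 were lower, whereas Lsm10 was near equal. In 8 pairs of an Sm gene with its LSm counterpart, the LSm gene had the lower ratio in 5 and the higher in 3. In every pair the Sm gene had the higher level, from 1.88 times (Snrpd3 over Lsm4) to 28.8 times (Snrpb over Lsm1) in ethanol.

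**Figure D3:**
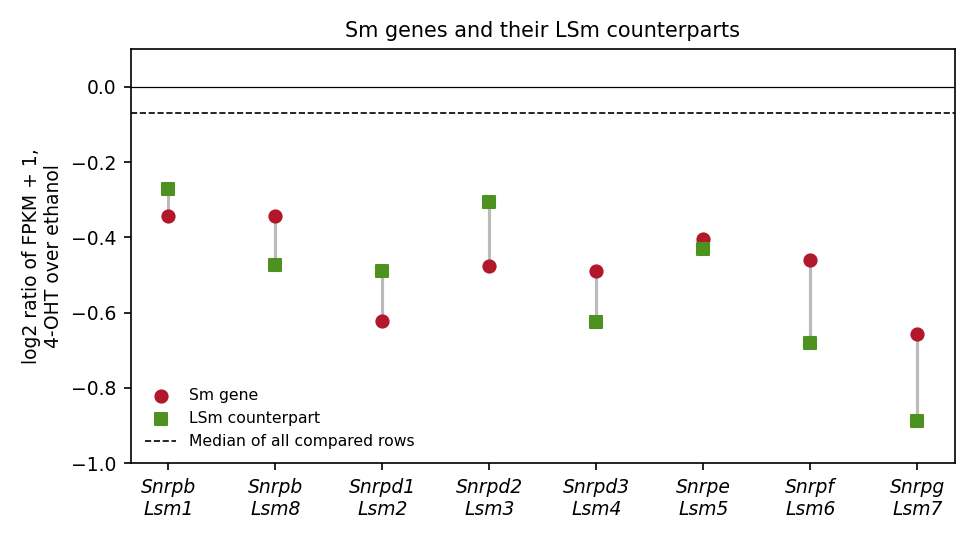
Circles give the log2 ratio of 4-OHT over ethanol for each Sm gene and squares that of its LSm counterpart, with a grey line joining the pair; Snrpb appears with both Lsm1 and Lsm8. All points lie below the dashed median of all rows at -0.07, and the pair of Snrpg and Lsm7 holds the lowest circle (-0.66) and the lowest square (-0.89).

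The genes of the methylosome, whose proteins methylate Sm tails and hand them on, were compared as well. Leaving out Prmt5, the deleted gene, 3 of 4 were lower in 4-OHT, against 55.1% of compared rows. By 20% or more 2 of the 4 were lower, against 29.9% of rows. With so few genes, these counts do not set the list apart from all compared rows. Besides Prmt5, the methylosome list held Wdr77, which encodes MEP50, at 28.3 and 18.9 FPKM (log2 ratio -0.56), and Clns1a, which encodes pICln, at 85.3 and 64.3 FPKM (-0.40). Riok1, an adaptor that competes with pICln for PRMT5, was at 10.7 and 8.94 FPKM (-0.24). Coprs, an adaptor for histone substrates listed as 2410022L05Rik, was at 3.15 and 7.54 FPKM and the one higher member (1.04). Clns1a, whose protein holds SmD1, SmD2, SmE, SmF and SmG before assembly, thus had a ratio within the range of the ring genes.

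In the SMN complex 8 of 9 genes had lower values in 4-OHT, against 55.1% of compared rows. By 20% or more 6 were lower (29.9% of rows), by 1.5-fold or more 3 (12.8%), and the median log2 ratio was -0.44. Gemin6 (18.5 and 9.36 FPKM, log2 ratio -0.91) had the lowest ratio, below every Sm ring member. Gemin6 and Gemin7 encode Sm-like proteins that bind each other, yet Gemin7 was at 31.7 and 32.6 FPKM (0.04). Gemin4 was at 14.7 and 7.80 FPKM (-0.84), and Gemin5, whose protein recognises the snRNA, at 20.8 and 12.8 FPKM (-0.65). Gemin2, listed as Sip1, encodes the protein that clasps the partial ring, and it was at 12.5 and 9.19 FPKM (-0.40). Smn1, which encodes SMN with its domain for methylated arginine, was at 29.8 and 26.8 FPKM (-0.15). Gemin8 (4.43 and 2.78 FPKM), Strap (77.5 and 57.0 FPKM) and the helicase gene Ddx20 (15.6 and 12.6 FPKM) had log2 ratios of -0.52, -0.44 and -0.29. The spread among these genes, from -0.91 to 0.04, was wider than that of the Sm ring.

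Genes that carry snRNAs through their cycle of export, capping and import were lower in 8 of 8, with a median of -0.48, against 55.1% of compared rows. Median-of-ratios scaling took the count to 7, against 50% of rows. The lowest ratio belonged to Tgs1, which encodes the enzyme that trimethylates the snRNA cap once the Sm ring is in place, at 26.4 and 15.6 FPKM (log2 ratio -0.72). The most abundant were Kpnb1, the import receptor gene (94.1 and 68.4 FPKM, -0.45), and Xpo1, the export receptor gene (56.1 and 37.5 FPKM, -0.57). Phax, the adaptor gene of snRNA export, was near equal at 19.6 and 18.9 FPKM (-0.05).

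Genes grouped by the snRNPs their proteins belong to had a smaller median shift than the ring genes. Of 38 such genes 33 were lower (55.1% of compared rows) and 18 at least 20% lower (29.9%), at a median log2 ratio of -0.32. For the U1 and U2 snRNPs 14 of 15 were lower, with a median of -0.34. Snrnp70, which encodes the U1-70K protein, was at 164 and 130 FPKM (-0.34), Snrpa1 of U2 was lowest at 59.0 and 39.1 FPKM (-0.58), and Sf3b2 was level at 100.4 and 100.8 FPKM (0.01). For U4, U5 and U6, 12 of 16 were lower (median -0.31). The U4 binding protein gene Snu13, listed as Nhp2l1, was lowest at 157 and 97.4 FPKM (-0.68), Prpf8 of U5 was at 104 and 81.5 FPKM (-0.35), and Prpf6 was highest at 11.5 and 14.7 FPKM (0.32). For the minor U11 and U12 snRNPs 7 of 7 were lower (median -0.24), with Snrnp35 lowest at 18.4 and 10.5 FPKM (-0.75) and the most abundant, Zcrb1 and Snrnp25, at -0.08 and -0.21. No test bears on these differences between lists.

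**Figure D4:**
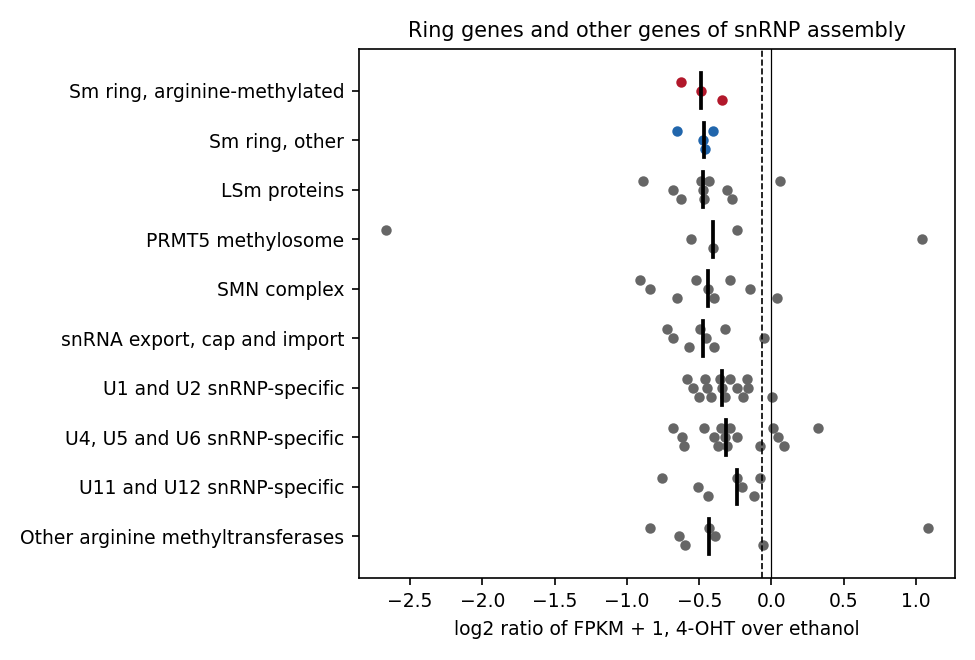
Each point is 1 compared gene, placed by its log2 ratio of 4-OHT over ethanol within its list; black bars are list medians, the dashed line is the median of all compared rows at -0.07 and the solid line is 0. Both Sm ring lists lie wholly left of the dashed line, with medians of -0.49 and -0.47, while Prmt5 at -2.67 and Coprs at 1.04 stand far out in the methylosome list.

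Other arginine methyltransferase genes were lower in 6 of 7 compared, with a median of -0.43, and in 5 under median-of-ratios scaling (55.1% and 50% of compared rows). Prmt1, the main enzyme of asymmetric arginine methylation, was at 128 and 84.4 FPKM (log2 ratio -0.60). Prmt7, which has been linked to Sm protein methylation, was at 23.3 and 14.6 FPKM (-0.64). Prmt3 was lowest, at 19.3 and 10.3 FPKM (-0.84), and Prmt2 was higher, at 2.93 and 7.32 FPKM (1.08). Prmt8 was listed at 0 in ethanol and was not compared.

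By nearness of the log2 ratio to the ring median, over 2 conditions only, the most similar of 70 snRNP assembly genes were Lsm8 (listed as Naa38), Eftud2 of the U5 snRNP and Lsm11, each at -0.47. Lsm11, a low gene, stood there only with the pseudocount: the authors' deposited table, without one, gives it -0.63. Of the 70 genes 30 lay within the range of the ring members, 9 below it and 31 above it. Over all compared rows that range ran from percentile 9.71 (Snrpg) to 28.3 (Snrpb), counted from the lowest. A match on a single ratio is weak, and many genes of the table share this range.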

How the data were processed

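Messenger RNA of 6 libraries was measured with paired-end Illumina sequencing, per the labels' protocols. The authors deposited FPKM, 1 value per gene and condition. Combination and scaling of the 3 libraries of a condition were not given in the sources used here. The submitters' processing notes name build mm9 and CASAVA, TopHat2 2.0.9 and Cufflinks 2.1.1. The deposited log2 fold changes, which the authors computed, equal the log2 of the 4-OHT over the ethanol FPKM within 0.01 in all 15756 rows above 0 in both.

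Groups came from the treatment labels. One planned B-cell marker is not reported here. Ratios were taken with a pseudocount of 1 FPKM, and the calculation was tested on simulated data. Without values per library, the planned fallback to a linear model was not run. Members, gene lists and the rule for named genes were chosen with earlier results of these data known. The rule named all ring members, the methylosome and the SMN complex, and in each other list the 2 most abundant genes and both extremes of ratio. Counts at least 20%, 1.5-fold and 2-fold lower were taken, also under 8 alternative settings. Promoter motifs were chosen after the sequences were seen. Of 18851 loci matched by name to GRCm38 RefSeq genes, lengths were equal in 6341 when starts count from 0 and in 437 when they count from 1, so 1 was added to each start. Transcripts were searched with BLAST 2.17.0. Calculations used pandas 2.3.3 and numpy 2.4.6 in Python 3.11.15, and plots matplotlib 3.10.9.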

Additional observations from a re-analysis of the deposited data

How the results depend on the processing

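All 7 ring members were lower under each of the 8 alternatives (pseudocounts of 0.1 and 0.5, the authors' deposited fold changes, no filter, a minimum of 5 FPKM, median-of-ratios scaling, quantile normalization, and no merged rows). The ring median ran from -0.49 to -0.40 and the median of all rows from -0.11 to 0.01. Snrpg kept the lowest and Snrpb the highest ratio of the ring. Median-of-ratios scaling took the count of members at least 1.5-fold lower from 2 to 0, with Snrpg at -0.58 and Snrpd1 at -0.55; the scaling raises the median ratio of all rows by 0.07. Of all rows 2.58% were at least 2-fold lower; this share was 4.21%, and Prmt5 at -2.84, under a pseudocount of 0.1, and 4.44% and -2.86 by the authors' deposited fold changes; a smaller pseudocount widens ratios of low genes. The other 347 values recomputed stayed within set limits. These were 0.1 on the log2 scale and 10 percentage points for percentiles and the share of rows lower. For counts and for shares of rows past a fold, the limit was 1.5 times. No paired analysis was possible because each condition has a single value per gene, and leaving out each library was not run for the same reason. Depth is unknown, so no counting error can be given.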
